A study of Mus musculus with 4 samples.

Results

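MHC class II presentation was described through 10 genes taken by symbol from the table of 55401 genes: *H2-Aa*, *H2-Ab1*, *H2-Eb1*, *Cd74*, *H2-DMa*, *H2-DMb1*, *H2-DMb2*, *H2-Oa*, *H2-Ob*, and *Ciita*. All 10 were found, and all 10 were among the 19806 genes with enough reads for testing. RNA was sequenced from CD45+ immune cells sorted from the dura mater, the outer meningeal layer, and every library came from a pool of 10 to 12 wild-type (WT) C57BL/6J male mice. The mice received 2 µl of an AAV9 vector into the cisterna magna at 4 wk of age. AAV-mVEGF-C encodes full-length mouse VEGF-C, the main lymphatic growth factor, and AAV-CTRL encodes a soluble VEGFR-3 ectodomain that does not bind VEGF-C, so that both groups carried a vector. There were 2 libraries per group, and the question was whether dural leukocytes exposed to VEGF-C carried more or less class II RNA.

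MHC class II molecules display peptides from internalized proteins to CD4 T cells. The α and β chains assemble around the invariant chain, whose remnant is later removed from the groove in endosomes with the help of H2-DM, and H2-O restrains H2-DM. Dendritic cells, B cells, and part of the macrophages carry these molecules constitutively. *Ciita* encodes the transactivator that is recruited to class II promoters by factors bound to the X and Y boxes.

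Of the 10 genes, 8 lie within 224.3 kb of chromosome 17, at chr17:34092340-34316674 (GRCm38, GENCODE M21). The promoter sequences below show where letters like those of the X and Y boxes stand at these genes. RefSeq promoter windows (GRCm38.p6, 250 bases before to 50 after the start) matched 7 of the 10 genes, in 8 windows; *H2-Ab1*, *Cd74*, and *Ciita* were not matched. The Y box core was searched as ATTGG and the X box as CCNNGNNAC, on both strands. Each stretch runs from base 120 to base 31 before the start, 5′ to 3′ on the strand of the gene, and capitals mark the matches on that strand, which did not overlap each other. They are shown for the 5 genes in which a match fell in this stretch and in which it held few or no annotated exon bases.
H2-Aa, chr17:34287854-34287943, minus strand: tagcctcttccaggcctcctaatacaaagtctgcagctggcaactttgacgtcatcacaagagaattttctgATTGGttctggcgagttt
H2-Eb1, chr17:34305747-34305836, plus strand: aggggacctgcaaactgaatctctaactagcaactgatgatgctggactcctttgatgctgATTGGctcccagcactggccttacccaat
H2-DMb2, chr17:34145129-34145218, plus strand: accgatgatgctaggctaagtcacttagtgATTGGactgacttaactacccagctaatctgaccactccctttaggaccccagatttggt
H2-Oa, chr17:34092259-34092348, plus strand: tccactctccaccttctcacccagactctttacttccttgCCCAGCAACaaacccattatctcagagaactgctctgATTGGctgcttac
H2-Ob, chr17:34238785-34238874, plus strand: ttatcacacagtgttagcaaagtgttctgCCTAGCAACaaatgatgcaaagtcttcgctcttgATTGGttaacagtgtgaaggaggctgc

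An X box followed on the same strand by the Y box core with 20 to 40 bases between them stood in *H2-Oa*, *H2-Ob*, and *H2-DMb1*, which is 3 of the 7 matched genes. The same pair stood in 1.11% of all 32851 promoter windows. The Y box core alone was in a window of each of the 7 genes and in 37.4% of all windows, and the X box letters were in 6 of the 7 and in 47.4% of all windows. In *H2-Aa*, *H2-Eb1*, and *H2-Oa* the core began 48, 59, and 43 bases before the start. A match is a run of letters and was not measured as a binding site. The search allowed no changed base at the fixed positions. A stretch without capitals for the X box, as in *H2-Aa* and *H2-Eb1*, may therefore still hold such a box.

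The libraries held 32520649 to 46409685 reads in genes. AAV-CTRL 1 stood apart from the other 3. It had the most reads but the fewest genes with a read, 20990 against 29221 to 37512, and its mean correlation with the other libraries was 0.970 against 0.978 to 0.983. The leukocyte gene *Ptprc*, which encodes CD45, was at 946 to 1151 CPM (reads scaled to a library of common size, with TMM factors) in all 4 libraries. Values without this library are given below beside the results that it moved most. The labels number the 2 pools of a group as separate experiments but do not say what set them apart, so the spread within a group may be technical in part. The deposited column names number the control pools otherwise than the sample titles. The numbers used here are those of the titles.

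The invariant chain and the chain genes of class II were among the most abundant RNAs in these cells, and the other 6 genes were not. The levels of different genes are compared in TPM, which correct for transcript length. *Cd74*, the invariant chain, stood first with 3321 ± 599 TPM (SD, n = 4 libraries), rank 27 of the 19806 tested genes. *H2-Ab1* followed with 1842 ± 204 TPM, *H2-Eb1* with 1384 ± 151 TPM, and *H2-Aa* with 1055 ± 101.4 TPM. This order held within each of the 4 libraries, although the ranges of *H2-Eb1* and *H2-Aa* over libraries touched (1171 to 1525 and 935 to 1175 TPM). *H2-DMa* at 82.0 ± 11.9 and *H2-DMb1* at 70.9 ± 9.01 TPM came next, far below the chains, with overlapping ranges. *Ciita* (25.6 ± 5.36 TPM), *H2-DMb2* (25.3 ± 2.14), *H2-Ob* (18.6 ± 5.08), and *H2-Oa* (14.2 ± 2.61) closed the order, and each overlapped its neighbor in this sequence.

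**Figure D1:**
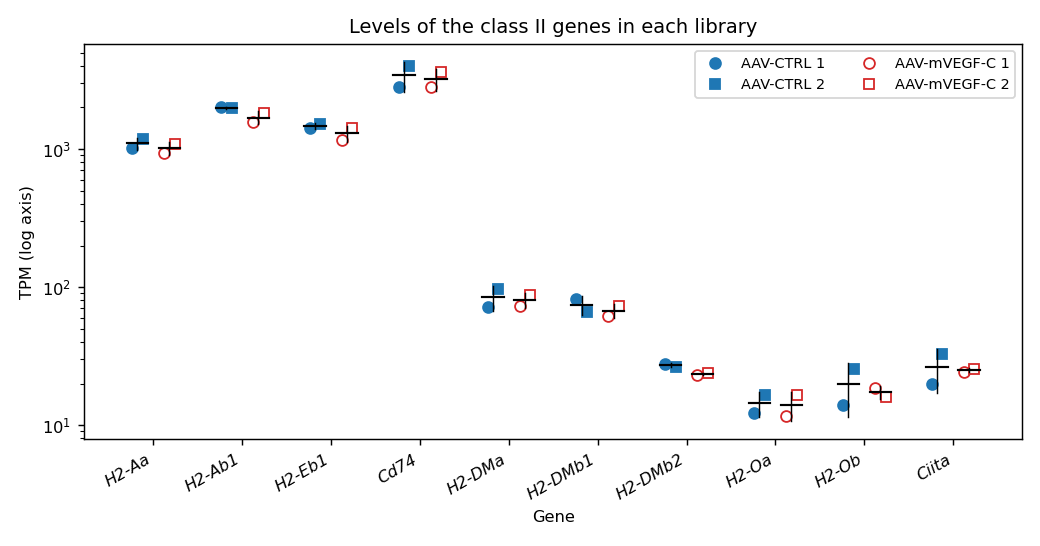
TPM of the 10 class II genes on a log axis, with 1 point per library (filled, AAV-CTRL; open, AAV-mVEGF-C), the group mean as a horizontal bar, and the SD of the 2 libraries as a vertical bar. *Cd74* and the 3 chain genes lie between 935 and 4028 TPM and the other 6 genes between 11.6 and 96.5 TPM in both groups.

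No difference between AAV-mVEGF-C and AAV-CTRL passed the test in any of the 10 genes. In the edgeR quasi-likelihood test 0 of 10 had a Benjamini-Hochberg adjusted p under 0.05, against 0% of all tested genes, and 0 of 10 had an unadjusted p under 0.05, against 2.64% of all tested genes. The smallest unadjusted p in the fit was 0.586 (*H2-Ob*). DESeq2 also called 0 of the 10, against 0.389% of all genes it tested. The log2 fold changes lay above 0 for 5 genes and under 0 for 5, with a median of 0.03 beside 0.0034 over all tested genes, of which 49.6% lay under 0. On the CPM scale the groups overlapped in all 10 genes, whereas 15.2% of all tested genes were lower and 16.8% higher without overlap after AAV-mVEGF-C. Because 2 libraries a group set wide limits, the 95% interval of the fold is given with each gene. Over all 10 these intervals reached from 0.668 to 1.66.

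For the chains of the classical molecules, the libraries of a group lay as far apart as the groups. *H2-Aa*, the α chain of I-A, had 1462 and 1602 CPM in libraries 1 and 2 of the controls and 1499 and 1682 CPM in libraries 1 and 2 of the treated mice. Each group thus had a lower and a higher library, and the groups overlapped. The log2 fold change was 0.05 (SE 0.17, edgeR adjusted p = 0.999), with an interval of the fold from 0.784 to 1.37.

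*H2-Ab1*, which encodes the β chain that pairs with it, was at 3058 and 2813 CPM after AAV-CTRL and at 2532 and 3016 CPM after AAV-mVEGF-C. AAV-mVEGF-C 1 was the lowest and AAV-CTRL 1 the highest, with AAV-mVEGF-C 2 lying between the controls. Its log2 fold change was -0.08 (SE 0.17, edgeR adjusted p = 0.999; fold 0.705 to 1.27). *H2-Eb1*, the β chain of I-E, was at 1561 and 1599 CPM in the controls and at 1417 and 1737 CPM after AAV-mVEGF-C, which bracketed the controls on both sides. Its log2 fold change was -0.0026 (SE 0.18, edgeR adjusted p = 0.999; fold 0.742 to 1.34).

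The partner of *H2-Eb1*, the I-E α chain gene *H2-Ea*, had 0 reads in all 4 libraries, with 32520649 reads in the shallowest; C57BL/6 mice are known to carry a defective copy of this gene. *H2-Eb2*, a β chain gene next to *H2-Eb1* (chr17:34325665-34341412), was low, at 5.28 and 7.04 CPM after AAV-CTRL and 7.96 and 7.38 CPM after AAV-mVEGF-C. Both treated libraries were above both controls, but the log2 fold change of 0.32 (SE 0.30) did not pass the test (edgeR adjusted p = 0.999) and was 0.11 without AAV-CTRL 1 and 0.55 without AAV-CTRL 2.

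The invariant chain varied more between libraries than the chains it escorts. *Cd74* reached 4329 and 5713 CPM in the first and second control library, against 4719 and 5995 CPM in those given AAV-mVEGF-C. The libraries numbered 1 were low and those numbered 2 high in both groups. The log2 fold change was 0.09 (SE 0.21, edgeR adjusted p = 0.999; fold 0.743 to 1.53). In 6 of the 10 genes, *H2-Aa*, *H2-Eb1*, *Cd74*, *H2-DMa*, *H2-Oa*, and *Ciita*, both libraries numbered 1 were lower in CPM than both numbered 2; this order was found in 18.8% of all tested genes.

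*Ciita* (chr16:10480059-10528418) showed the widest gap between the controls as a ratio of CPM, although in TPM that of *H2-Ob* was wider (14.0 against 25.6). It was at 138 CPM in AAV-CTRL 1 and 203 CPM in AAV-CTRL 2, and the 174 and 188 CPM of the AAV-mVEGF-C libraries fell between them. The log2 fold change was 0.09 (SE 0.22, edgeR adjusted p = 0.999; fold 0.736 to 1.53). The overlapping gene on the other strand, *Dexi*, had 241 to 340 reads in a library, against 5969 to 6974 for *Ciita*.

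**Figure D2:**
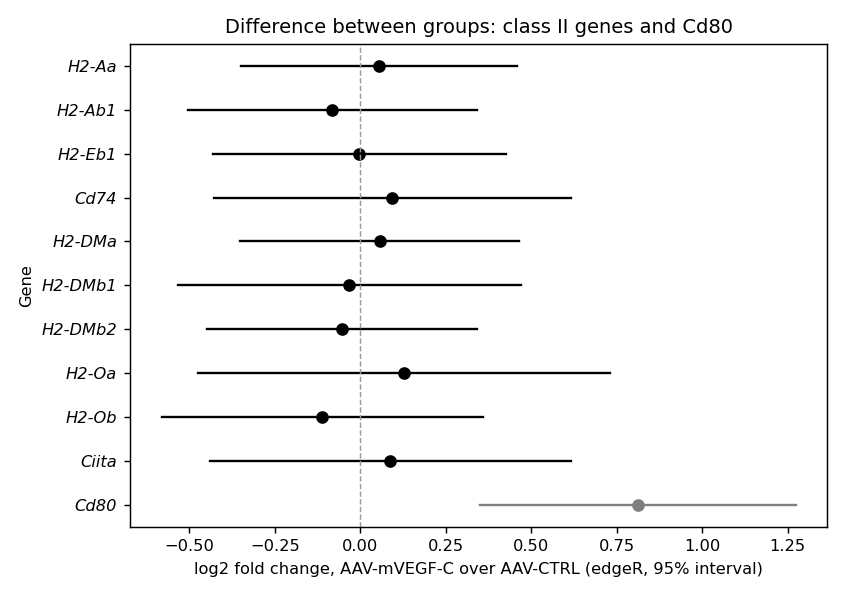
Log2 fold change of AAV-mVEGF-C over AAV-CTRL from edgeR with its 95% interval for the 10 class II genes (black) and for the costimulatory gene *Cd80* (gray), with a dashed line at no difference. All 10 class II intervals span 0, with estimates from -0.11 to 0.13, and that of *Cd80* lies above 0 at 0.35 to 1.27 before adjustment for the number of genes tested.

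The genes of H2-DM, the peptide exchange factor, did not pass the test either. *H2-DMa* was at 102 and 120 CPM in the controls and at 108 and 123 CPM after AAV-mVEGF-C, so that the groups interleaved. The log2 fold change was 0.06 (SE 0.17, edgeR adjusted p = 0.999; fold 0.783 to 1.38). Its region overlaps *Brd2*, a gene on the other strand with 10354 to 11737 reads against 3886 to 4546 for *H2-DMa*. Whether strand was used in counting is not given in the sources used here, so reads of *Brd2* in the shared stretch cannot be told apart from those of *H2-DMa*.

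*H2-DMb1* was at 149 and 111 CPM in the controls, which were the highest and the lowest library, and at 115 and 139 CPM after AAV-mVEGF-C. It had a log2 fold change of -0.03 (SE 0.21, edgeR adjusted p = 0.999; fold 0.691 to 1.38). *H2-DMb2* was at 50.1 and 44.5 CPM in the controls and at 44.8 and 46.3 CPM after AAV-mVEGF-C, with AAV-CTRL 1 again on top, and the log2 fold change was -0.05 (SE 0.16, edgeR adjusted p = 0.999; fold 0.733 to 1.27).

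Both β chain genes of H2-DM are close copies. They shared 517 words of 31 bases in their GENCODE transcripts, 31.4% of those of *H2-DMb1* and 29.7% of those of *H2-DMb2*, whereas the only other pair among the 10 genes with any shared word, *H2-Ab1* and *H2-Eb1*, shared 7. They were also the only 2 of the 10 genes with fractional reads, and in each library their sum was whole, at 8905, 5331, 6234, and 5878 reads. The part of the sum given to *H2-DMb1* was 74.9% and 71.3% after AAV-CTRL and 71.9% and 75.1% after AAV-mVEGF-C, so the split between the copies was alike while each single value remains uncertain. Summed, the pair was at 199 and 155 CPM against 160 and 185 CPM, with the treated libraries inside the range of the controls.

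*H2-Oa* and *H2-Ob*, the chains of the H2-DM inhibitor, are used mainly in B cells and in part of the dendritic cells. *H2-Oa* was at 16.7 and 21.02 CPM after AAV-CTRL and at 17.2 and 24.01 CPM after AAV-mVEGF-C. It had the largest log2 fold change of the 10, 0.13 (SE 0.25, edgeR adjusted p = 0.999; fold 0.719 to 1.66), and the fewest reads, 671 to 761 in a library. *H2-Ob* was at 36.3 and 47.6 CPM after AAV-CTRL and at 39.5 and 38.2 CPM after AAV-mVEGF-C. Here AAV-CTRL 2 stood above the other 3 libraries, and the log2 fold change was the lowest of the 10, -0.11 (SE 0.19, edgeR adjusted p = 0.999; fold 0.668 to 1.28).

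Without AAV-CTRL 1, again none of the 10 passed an adjusted p of 0.05 in edgeR (0 of 10, lowest 0.881), and 0 had an unadjusted p under 0.05, beside 7.75% of all tested genes, while 412 of 22284 genes were called. The median log2 fold change of the 10 genes moved to -0.04, with 2 genes above 0. *Ciita* and *Cd74* then had log2 fold changes of -0.18 and -0.11, and *H2-DMb1* one of 0.18. Where AAV-CTRL 2 was left out in its place, *Ciita* was at 0.40 with an edgeR adjusted p of 0.161, and 1 of 10 had an unadjusted p under 0.05, beside 28.9% of all tested genes. The direction of the small differences in *Ciita*, *Cd74*, and *H2-DMb1* therefore turned with the choice of control. It also turned in *H2-Aa*, *H2-Eb1*, *H2-DMa*, *H2-DMb2*, *H2-Oa*, and *H2-Ob*, but not in *H2-Ab1*.

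**Figure D3:**
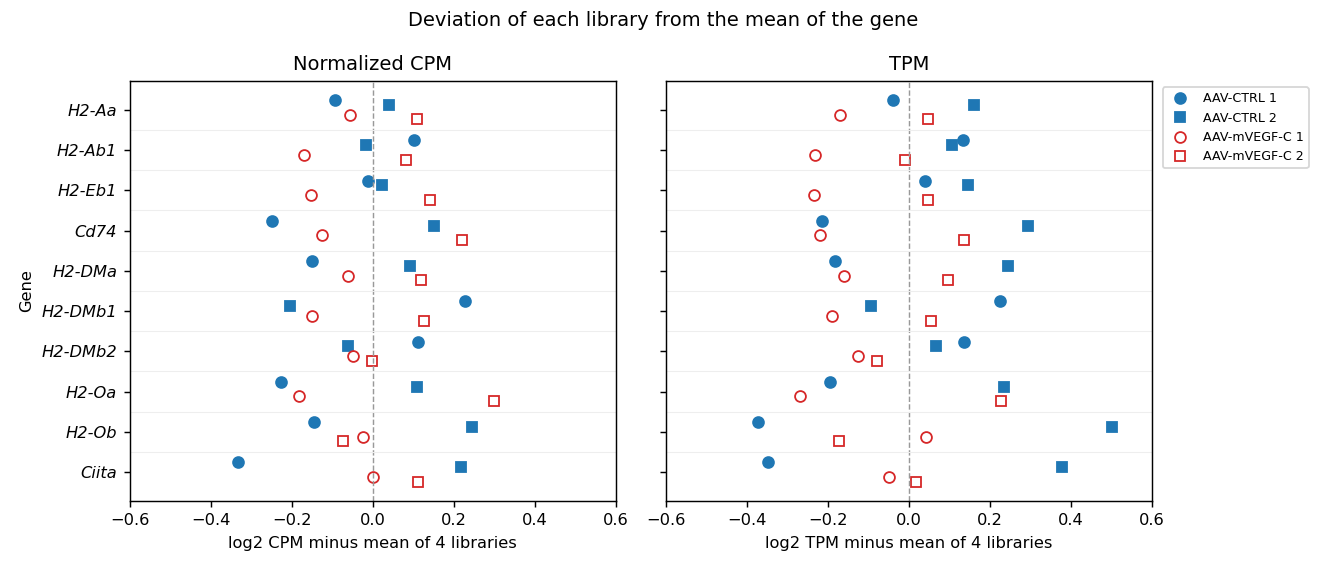
Deviation of each library from the mean of the gene over 4 libraries, as log2 CPM (left) and log2 TPM (right), for the 10 class II genes; filled points are AAV-CTRL and open points AAV-mVEGF-C, circles replicate 1 and squares replicate 2. In CPM, AAV-CTRL 1 is the lowest library for 6 genes and the highest for 3, while in TPM AAV-mVEGF-C 1 is the lowest for 7.

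Together the 10 genes took 1.05% of the reads in AAV-CTRL 1 (Wilson 95% interval 1.047 to 1.053%, counting error only) and 1.27% in AAV-CTRL 2 (1.263 to 1.270%). In AAV-mVEGF-C 1 and 2 the share was 1.09% (1.092 to 1.098%) and 1.27% (1.262 to 1.270%). Each group had a low and a high library. Summed CPM were 10902 and 12274 after AAV-CTRL and 10665 and 12990 after AAV-mVEGF-C, a ratio of group means of 1.02. Fewer cells of a type and less RNA per cell cannot be told apart in these bulk libraries.

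On the TPM scale the same genes appeared lower after AAV-mVEGF-C. Summed TPM were 7509 and 8966 against 6696 and 8183, a ratio of 0.903, with overlapping groups. All 10 log2 fold changes were then under 0, with a median of -0.12, 0 of 10 called, and 0 with an unadjusted p under 0.05 by limma on log2(TPM + 1), beside 4.55% of all tested genes. The median of all tested genes was -0.08 with this pseudocount. With a pseudocount of 0.1 the medians were -0.12 for the members and -0.11 for all tested genes. In the main fit on reads they were 0.03 and 0.0034. *H2-Ab1* (2011 and 1974 against 1561 and 1821 TPM) and *H2-DMb2* (27.7 and 26.4 against 23.1 and 23.9 TPM) were lower without overlap, 2 of 10 genes beside 28.5% of all tested genes, and 0 of 10 were higher without overlap, beside 8.92%. The short RNA gene *Rn7s1* alone took 24.8 to 29.4% of all TPM, and its part in the lower TPM values was not tested.

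Ratios between the genes of a library do not depend on scaling to the library total. The TPM ratio of *Cd74* to *H2-Ab1* was 1.41 and 2.04 after AAV-CTRL and 1.80 and 1.98 after AAV-mVEGF-C, and AAV-CTRL 1 alone was low. The ratio of *H2-Ab1* to *H2-Aa* was 1.97 in AAV-CTRL 1 and 1.68, 1.67, and 1.68 in the other 3 libraries. H2-DM to H2-O, as the summed TPM of the 3 genes of H2-DM over those of *H2-Oa* and *H2-Ob*, was 6.94 and 4.49 in the controls and 5.22 and 5.67 after AAV-mVEGF-C. The controls thus enclosed the treated libraries, and the difference of the group means was a log2 ratio of -0.07 with all libraries and 0.28 without AAV-CTRL 1.

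Of 9 such ratios, the groups did not overlap in 2 in TPM and in 0 on reads. In TPM the summed H2-DM genes were 5.997% and 6.002% of summed *H2-Aa* and *H2-Ab1* in the controls and 6.33% and 6.33% after AAV-mVEGF-C, but on reads they were 6.66% and 6.23% against 6.64% and 6.56%, with overlap. The ratio of *H2-Ab1* to *H2-Aa* was the other, lower after AAV-mVEGF-C in TPM, although AAV-CTRL 2 and AAV-mVEGF-C 2 both round to 1.68, and on reads it was 2.09 and 1.76 against 1.69 and 1.79, with overlap. No test was made on ratios over chosen genes, and with 2 libraries against 2 the smallest p of an exact permutation test is 0.333.

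**Figure D4:**
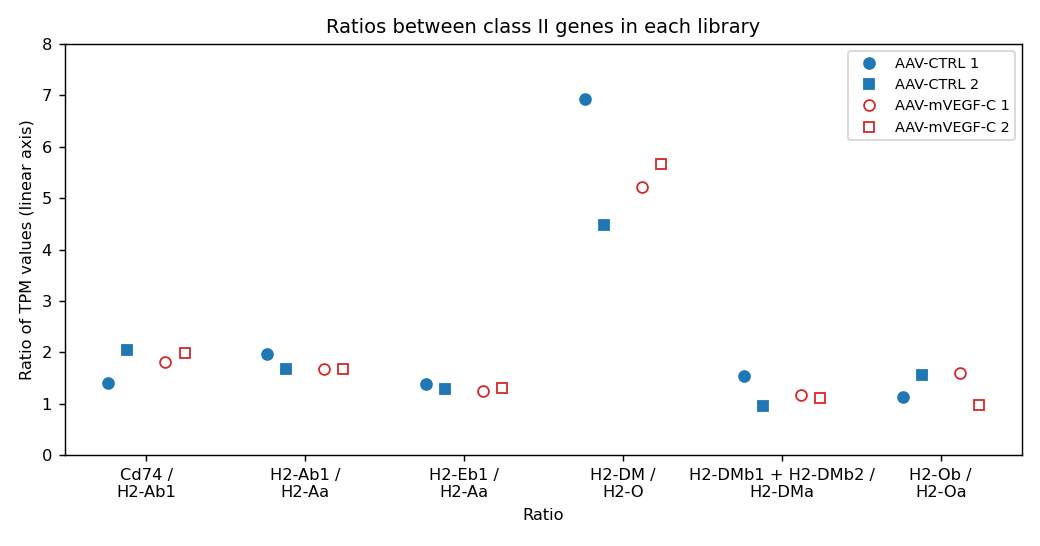
Ratios of TPM values between class II genes in each library on a linear axis; H2-DM is the sum of *H2-DMa*, *H2-DMb1*, and *H2-DMb2*, and H2-O the sum of *H2-Oa* and *H2-Ob*. AAV-CTRL 1 is the lowest library for *Cd74* over *H2-Ab1* (1.41) and the highest for H2-DM over H2-O (6.94).

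The wider pathway was read from 41 tested genes in 6 lists, and 0 of them had an adjusted p under 0.05 by edgeR or DESeq2. At an unadjusted p under 0.05 there was 1 of 41 in edgeR, beside 2.64% of all tested genes. Their median log2 fold change was 0.0036 beside 0.0034 over all tested genes, with 21 above 0 and 20 under 0.

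That 1 gene was *Cd80*, a costimulatory ligand of CD28 and CTLA-4 on antigen-presenting cells. It was at 14.7 and 13.3 CPM in the controls and at 24.9 and 24.3 CPM after AAV-mVEGF-C. Both treated libraries were well above both controls, in TPM as well (8.38 and 7.78 against 4.05 and 5.10). The log2 fold change was 0.81 (SE 0.19), with an edgeR adjusted p of 0.999 over all tested genes. The log2 fold change was 0.87 without AAV-CTRL 1 and 0.75 without AAV-CTRL 2, and over all alternatives it lay between 0.71 and 0.87. All 6 tested genes of the costimulation list had log2 fold changes above 0 (median 0.23), but 2 of them, *Cd274* and *Pdcd1lg2*, encode inhibitory ligands and overlapped between groups. The groups did not overlap in 4 of the 6, all higher after AAV-mVEGF-C, beside 16.8% of all tested genes. In TPM this held for 2 of the 6 (*Cd80* and *Icosl*), beside 8.92% of all tested genes.

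Among the 14 regulators of class II transcription, 7 were above and 7 under 0. In CPM 2 were higher without overlap (*Rfx5* and *Jak2*) and 1 lower (*Ifng*), beside 16.8% and 15.2% of all tested genes. In TPM 0 were higher and 3 lower (*Rfxank*, *Nfyb*, and *Jak1*), beside 8.92% and 28.5%. No regulator stood apart on both scales. *Nfya*, a subunit of the Y box factor, was at 64.8 and 104 CPM in the controls and 103 and 110 CPM after AAV-mVEGF-C, with a log2 fold change of 0.34 (SE 0.24, edgeR adjusted p = 0.999). AAV-CTRL 1 alone was low, and the log2 fold change was 0.016 without it and 0.73 without AAV-CTRL 2. *Ifng*, the cytokine that induces *Ciita*, was at 8.12 and 7.71 against 5.22 and 7.29 CPM, a log2 fold change of -0.34 (SE 0.31, edgeR adjusted p = 0.999) that was -0.11 without AAV-mVEGF-C 1 and turned to 0.27 on the log2(TPM + 1) scale.

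Of the 13 endosomal processing genes, 9 had log2 fold changes under 0 and 4 above, with a median of -0.12. Lower without overlap were 1 of them in CPM (*Lamp2*, a lysosomal membrane gene), beside 15.2% of all tested genes, and 6 in TPM, beside 28.5%. The protease gene *Ctsl* was at 47.4 and 64.1 CPM in the controls and 40.7 and 48.3 CPM after AAV-mVEGF-C, with overlap (log2 fold change -0.33, SE 0.21, with -0.54 without AAV-CTRL 1 and -0.08 without AAV-CTRL 2). *Ctsz*, another cathepsin gene, was at 229 and 202 against 164 and 212 CPM (-0.20, SE 0.19), and its log2 fold change was -0.015 without AAV-mVEGF-C 1 and -0.39 without AAV-mVEGF-C 2. Of the 3 genes of surface turnover, *Cd83*, which protects class II from ubiquitination, had a log2 fold change of 0.15 (SE 0.23) and *Marchf8*, a ubiquitin ligase gene, one of -0.13 (SE 0.20), which was -0.85 on the log2(TPM + 1) scale. None of these 4 passed the test (edgeR adjusted p = 0.999 each).

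The class II ligand and receptor side gave 2 genes above and 2 under 0. *Lag3*, an inhibitory receptor for class II, was at 6.60 and 11.4 CPM in the controls and at 5.17 and 6.40 CPM after AAV-mVEGF-C, both lower than either control. Its log2 fold change was -0.63 (SE 0.36, edgeR adjusted p = 0.999), with -0.99 without AAV-CTRL 1 and -0.18 without AAV-CTRL 2. *Mif*, a ligand of CD74, was at 32.01 and 26.3 against 20.97 and 23.7 CPM, again without overlap (-0.38, SE 0.20, edgeR adjusted p = 0.999), with -0.25 without AAV-CTRL 1, -0.51 without AAV-CTRL 2, and -0.59 on the log2(TPM + 1) scale. The other 2 genes, *Cd4*, the T cell coreceptor for class II (49.1 and 43.6 against 54.7 and 58.1 CPM), and *Cd44*, which pairs with CD74 in MIF signalling (364 and 294 against 374 and 375 CPM), were higher without overlap, though *Cd44* overlapped in TPM. The 4 genes thus split evenly, beside 15.2% of all tested genes that were lower and 16.8% that were higher without overlap.

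The cell types that carry class II were read from marker lists, in which all 75 genes were tested and had reads in every library. Summed B cell markers (9 genes, such as *Ms4a1* and *Cd79a*) were at 299 and 692 CPM in the controls and at 325 and 358 CPM after AAV-mVEGF-C, with AAV-CTRL 2 above the rest. The median log2 fold change of these genes was -0.34, but -0.89 without AAV-CTRL 1 and 0.29 without AAV-CTRL 2. On the log2(TPM + 1) scale with all libraries it was -0.73. *H2-Ob* was likewise highest in AAV-CTRL 2. *H2-Oa* was highest in AAV-mVEGF-C 2 in CPM, but in TPM it was at 16.5 in AAV-CTRL 2 and 16.4 in AAV-mVEGF-C 2.

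Markers of conventional dendritic cells (10 genes, such as *Flt3* and *Zbtb46*) summed to 475 and 500 CPM in the controls and 537 and 556 CPM after AAV-mVEGF-C, higher without overlap, with 9 of 10 log2 fold changes above 0 (median 0.24). In TPM the same sums overlapped (182 and 211 against 194 and 202), and the median was 0.15 on the log2(TPM + 1) scale. Gene by gene, 6 of the 10 were higher and 1 lower without overlap in CPM, beside 16.8% and 15.2% of all tested genes. In TPM 5 were higher and 1 lower, beside 8.92% and 28.5%. Markers of border-associated macrophages (10 genes, such as *Mrc1* and *Lyve1*) summed to 1485 and 2157 against 1275 and 1803 CPM, with all 10 log2 fold changes under 0 (median -0.28, but -0.57 without AAV-CTRL 1 and 0.09 without AAV-CTRL 2). Those of plasmacytoid dendritic cells (6 genes, such as *Siglech* and *Bst2*) summed to 154 and 298 against 189 and 211 CPM, with all 6 under 0 (median -0.28, but -0.72 without AAV-CTRL 1 and 0.39 without AAV-CTRL 2). The direction in both lists thus turned with the control that was kept. In each of these 4 lists 0 genes had an adjusted p under 0.05 by edgeR, and 1 of the 35, *Ms4a1* (log2 fold change -0.82, SE 0.33), had an unadjusted p under 0.05, a share close to the 2.64% of all tested genes. The summed class II level differed by at most 1.22 times in CPM and 1.34 times in TPM between any 2 libraries, and the part of each cell type in it was not tested.

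Other marker lists moved with the libraries or the groups. Neutrophil markers (8 genes, such as *S100a8* and *S100a9*), of cells that carry little class II, summed to 26066 CPM in AAV-CTRL 1 and 12035 CPM in AAV-CTRL 2, with 15300 and 17306 CPM after AAV-mVEGF-C (median log2 fold change 0.016, but 0.53 without AAV-CTRL 1 and -0.37 without AAV-CTRL 2). Monocyte markers (7 genes, such as *Ly6c2* and *Ccr2*) were at 2792 and 1677 against 1984 and 2027 CPM (median -0.10, but 0.41 without AAV-CTRL 1 and -0.38 without AAV-CTRL 2). T cell markers (7 genes, such as *Cd3e* and *Cd3d*) were at 236 and 223 against 292 and 270 CPM (median 0.22, with 0.35 without AAV-CTRL 1 and 0.03 without AAV-CTRL 2).

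Plasma cell markers (6 genes, such as *Jchain* and *Sdc1*), of cells that have shut down *Ciita*, were at 436 and 446 CPM in the controls and 902 and 906 CPM after AAV-mVEGF-C, with a median log2 fold change of 0.73 (0.47 without AAV-CTRL 1 and 1.06 without AAV-CTRL 2). The fibroblast and endothelium lists were lower, at 653 and 1042 against 354 and 549 CPM for fibroblasts (6 genes, such as *Col1a1* and *Col1a2*) and 81.3 and 109 against 72.2 and 70.2 CPM for endothelium (5 genes, such as *Pecam1* and *Cdh5*). *Pecam1*, which leukocytes also express, took 47.2 and 51.6 against 42.2 and 41.5 CPM of the endothelium sum. That sum therefore does not stand for cells outside the sort alone. The median was -0.92 for fibroblasts (-1.18 without AAV-CTRL 1 and -0.49 without AAV-CTRL 2) and -0.63 for endothelium (-0.86 and -0.17). On the log2(TPM + 1) scale the medians were 0.55 for plasma cells, -0.80 for fibroblasts, and -0.35 for endothelium. No gene of these 6 lists had an adjusted p under 0.05 by edgeR, while 11 of 39 had an unadjusted p under 0.05, beside 2.64% of all tested genes. Their part in the class II values was not tested.

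**Figure D5:**
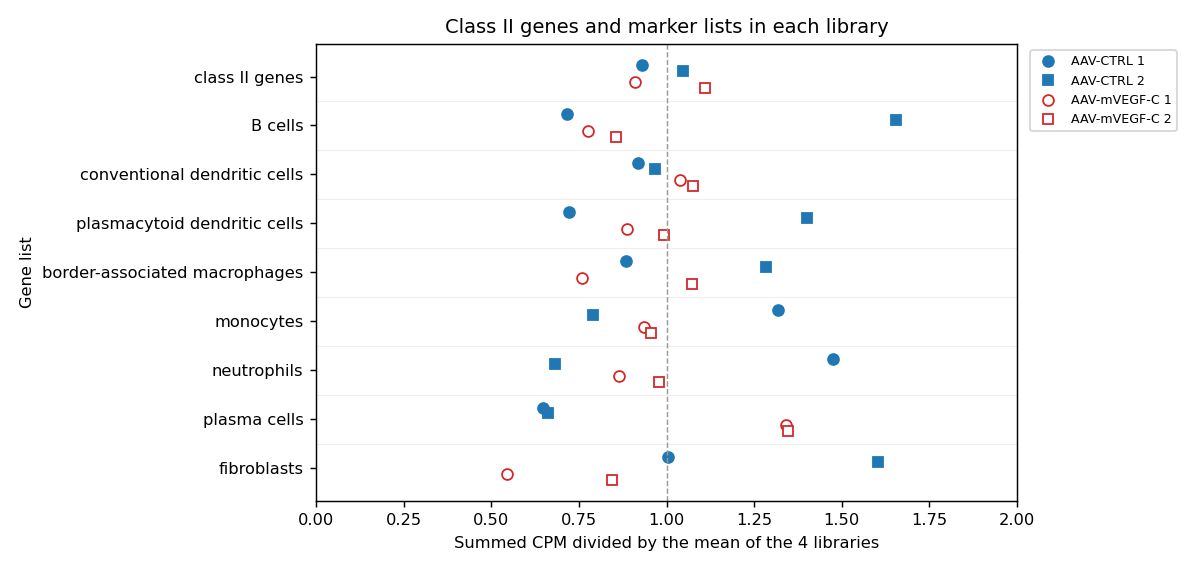
Summed CPM of the class II genes and of 8 marker lists in each library, divided by the mean of the 4 libraries of that list (dashed line at 1; filled, AAV-CTRL; open, AAV-mVEGF-C). Class II values stay near 1 while B cell markers in AAV-CTRL 2 (692 CPM) and neutrophil markers in AAV-CTRL 1 (26066 CPM) stand far from their means.

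The genes with the level profile nearest to the mean of *H2-Aa*, *H2-Ab1*, *H2-Eb1*, and *Cd74* over the 4 libraries were *Noc4l*, *Fkbp2*, *Tap2*, *Pcmt1*, and *Chpf2*, among 9327 candidates with a mean of at least 10 CPM. Their distances in centered log2(CPM + 1) were 0.023 to 0.030. *Tap2*, which encodes a subunit of the peptide transporter of MHC class I, was at 94.4 and 104 CPM in the controls and 90.9 and 111 CPM after AAV-mVEGF-C, in the same order of libraries as *H2-Eb1*. The distances of the 10 genes themselves reached from 0.062 (*H2-Eb1*) to 0.384 (*H2-DMb1*), and 1735 candidates lay nearer than the median of the 10. These distances describe 4 points per gene, and the 4 genes of the mean profile are part of it.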

How the data were processed

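Total RNA of sorted dural CD45+ cells was sequenced as stranded paired-end libraries of 2 pools per group. The authors deposited estimated counts per gene (8.18% of values had decimals) without normalization and TPM values for the same genes. The submitters' processing notes name FastQC, Trimmomatic, DRAGEN, Picard, and mm10; the annotation and the strand setting are not given in the sources used here. Of 55401 identifiers, 54349 occur with the same version in GENCODE M21, which gave the coordinates. 0 columns of samples were left unused.

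Estimated counts were rounded. Groups were compared by quasi-likelihood F tests in edgeR 4.0.16 (R 4.3.3) with TMM, filterByExpr (19806 genes), all 4 libraries, no covariate, and Benjamini-Hochberg adjustment over all genes tested at 0.05; it was tested on simulated data first. Intervals are the log2 fold change with its SE (size divided by the square root of F) times the t quantile at 95%. Alternatives were DESeq2 1.42.0, the tool of the study, limma 3.58.1 (voom, and log2(TPM + 1) or log2(TPM + 0.1)), other scalings and filters, a replicate block, and each library left out in turn. Libraries held 32520649 to 46409685 reads in genes.

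The members, lists, and tests were chosen with earlier results of these data known. Named were all 10 members, the genes of each pathway list with an unadjusted p under 0.05 or otherwise the 2 largest changes, the first 2 genes of each marker list, and the 5 nearest profiles. *Ptprc*, *Rn7s1*, *Cd4*, *Cd40*, *Cd44*, *Cd274*, *Pdcd1lg2*, *Icosl*, *Lamp2*, 5 regulators, and the overlapping genes were named after their values were seen. P-values measure the spread between these pools only. 1 marker gene of the B cell list is not reported here and was left out of its sums.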

Additional observations from a re-analysis of the deposited data

How the results depend on the processing

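No member was called under any of 13 alternatives (lowest edgeR adjusted p 0.161), and 102 of 130 member values kept their direction; DESeq2, limma-voom, and both blocks turned none. *H2-Eb1* turned to 0.0017 with RLE scaling and to 0.0055 with at least 10 reads in every library. By limma on log2(TPM + 1), *H2-Aa* was at -0.12, *Cd74* at -0.083, *H2-DMa* at -0.062, *H2-Oa* at -0.038, *Ciita* at -0.031, and *Ifng* at 0.27; on log2(TPM + 0.1) they were at -0.12, -0.083, -0.063, -0.041, -0.031, and 0.30. Summed class II levels changed from a log2 ratio of 0.03 in CPM to -0.15 in TPM. The cause was not tested.

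With each library left out in turn, log2 fold changes ranged for *H2-Aa* from -0.027 to 0.14, for *H2-Ab1* from -0.21 to 0.048, for *H2-Eb1* from -0.15 to 0.15, for *Cd74* from -0.11 to 0.32, for *H2-DMa* from -0.075 to 0.19, for *H2-DMb1* from -0.22 to 0.18, for *H2-DMb2* from -0.13 to 0.018, for *H2-Oa* from -0.13 to 0.36, for *H2-Ob* from -0.31 to 0.11, for *Ciita* from -0.18 to 0.40, for *Marchf8* from -0.30 to 0.034, for *Cd83* from -0.13 to 0.41, for *Nfya* from 0.016 to 0.73, for *Lag3* from -0.99 to -0.18, for *H2-Eb2* from 0.11 to 0.55, for *Ctsz* from -0.39 to -0.015, for *Ifng* from -0.59 to -0.11, for *Ctsl* from -0.54 to -0.083, and for *Mif* from -0.51 to -0.25. The log2 ratio of H2-DM to H2-O ranged from -0.35 to 0.28. In these fits the lone library of a group is assumed to vary like the other group.

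Over all genes edgeR called 0, against 77 by DESeq2, 268 without a filter, and 2 to 2058 with a library left out (412 without AAV-CTRL 1, 2058 without AAV-CTRL 2, 65 without AAV-mVEGF-C 2, and 2 without AAV-mVEGF-C 1). Pathway genes called then were 0 to 3: *Cd80* without AAV-CTRL 1 (edgeR adjusted p 0.030), and *Cd80*, *Cd40*, and *Nfya* without AAV-CTRL 2. The replicate block by experiment number called 11 genes and 0 members; deviations of same-numbered libraries correlated at -0.13, so the numbers were not taken to pair the libraries. A crossed block, chosen after seeing the data, joined AAV-CTRL 1 with AAV-mVEGF-C 2, whose deposited column names share a number. Their deviations correlated at 0.13, and the block called 54 genes and 0 members. With 2 libraries a group, the 95% intervals of the fold were narrowest for *H2-DMb2* (0.733 to 1.27) and widest for *H2-Oa* (0.719 to 1.66).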

Other observations

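AAV-CTRL 1 lacked reads in genes that the other libraries detected. Of 327 antisense genes (GENCODE type) with at least 10 reads in each of the other 3 libraries, 45 (13.8%) had 0 reads in AAV-CTRL 1, and of 348 lincRNA genes 44 (12.6%) did. For protein-coding genes it was 308 of 13442 (2.29%). The same count for each other library was at most 1 of 285 antisense genes (0.351%) and 6 of 13028 protein-coding genes (0.0461%). Antisense genes took 0.102% of the reads of AAV-CTRL 1 and 0.162 to 0.216% of those of the other libraries. At the class II genes the antisense genes *Gm20513* over *H2-Eb1* (0, 15, 27, and 33 reads) and *BC051537* over *H2-Oa* (0, 14, 10, and 14 reads, in the order AAV-CTRL 1 and 2, AAV-mVEGF-C 1 and 2) showed the same gap. These genes were named after their values were seen, and the cause was not tested.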
